A study of Homo sapiens with 6 samples.

Results

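The genes described here encode the proteins that copy DNA and supply its building blocks, in the papillary thyroid cancer cell line TPC1. They are the 37 rows of the deposited gene table whose symbol is on a list of replication fork and nucleotide supply genes, of 58735 rows in all. RNA was measured in 6 libraries, 3 from cells transfected with siRNA that targets a circular RNA, hsa_circ_0000839 (the group si-circ_0000839), and 3 from cells transfected with negative-control siRNAs (the group NC), both for 60 h and with no other treatment named. The comparison asks which genes differ once this circular RNA is silenced. Only the one cell line was used, and the gene table gives no value for the circular RNA, so its depletion was not checked here. The labels do not say whether the 3 replicates of a group were separate cultures, and the spread behind each p-value may therefore be technical.

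Before S phase, the origin recognition complex, CDC6 and CDT1 load the MCM2-7 ring on DNA. CDC45 and the GINS complex then turn that ring into the active helicase, the primase-polymerase alpha complex starts each strand, and polymerases delta and epsilon extend it with the sliding clamp PCNA, which the RFC complex loads. Ribonucleotide reductase, thymidylate synthase and thymidine kinase supply deoxynucleotides, and CAF-1 places new histones behind the fork. Many of these genes are transcribed as cells enter S phase, under E2F factors, and their transcripts are widely read as a sign of proliferation. In bulk RNA, fewer cells in S phase and less RNA per cell cannot be told apart.

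The promoters of these genes share a feature that the choice of members did not use, the short words to which E2F factors are known to bind. RefSeq promoter windows, from 250 bases before to 50 bases after a transcription start (GRCh38.p14), were matched by symbol for 34 of the 37 members, all but GINS4, MCM4 and MCM5. The core word TTNNCGC, with only C or G at its NN and on either strand, stood in a window of 28 of the 34 members, 82.4%, against 15.3% of 27305 genes with a window. The longer form with one more T at its front, which contains the core, stood in 18 of the 34, 52.9%, against 3.99% of all genes. A CCAAT box (CCAAT on either strand) was found in 22 members, 64.7%, against 39.7% of all genes, and the word TTTGAA, typical of promoters of mitotic genes, in 1 member, RRM1, against 18.2%. The 27305 genes were not matched to the members in base composition or expression. A match describes the letters of the window and is not evidence of binding. MCM6, which had the most core matches, and the 4 members with the smallest p between the groups show how these words are placed. Each sequence is the 250 bases before the start on the strand of the gene, 5′ to 3′, with core words and CCAAT boxes on either strand in capitals.
MCM6: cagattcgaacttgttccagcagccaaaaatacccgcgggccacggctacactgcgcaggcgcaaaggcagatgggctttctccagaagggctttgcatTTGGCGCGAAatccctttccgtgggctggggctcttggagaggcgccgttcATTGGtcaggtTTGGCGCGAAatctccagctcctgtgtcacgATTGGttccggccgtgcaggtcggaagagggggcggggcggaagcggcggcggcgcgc
PRIM1: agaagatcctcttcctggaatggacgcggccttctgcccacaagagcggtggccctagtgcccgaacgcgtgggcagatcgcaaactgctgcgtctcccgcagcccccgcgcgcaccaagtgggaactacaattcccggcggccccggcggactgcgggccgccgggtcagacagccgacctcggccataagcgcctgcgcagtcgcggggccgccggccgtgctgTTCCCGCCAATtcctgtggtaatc
TYMS: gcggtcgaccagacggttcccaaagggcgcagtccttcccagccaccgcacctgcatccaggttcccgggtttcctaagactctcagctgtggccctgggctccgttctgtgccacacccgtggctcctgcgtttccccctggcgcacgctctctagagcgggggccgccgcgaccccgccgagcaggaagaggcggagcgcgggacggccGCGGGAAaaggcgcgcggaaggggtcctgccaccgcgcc
UHRF1: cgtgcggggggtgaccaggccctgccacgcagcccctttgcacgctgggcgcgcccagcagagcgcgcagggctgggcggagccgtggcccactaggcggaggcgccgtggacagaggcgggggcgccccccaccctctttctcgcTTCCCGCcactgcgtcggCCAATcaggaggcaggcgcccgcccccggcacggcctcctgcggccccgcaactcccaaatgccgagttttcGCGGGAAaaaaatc
CLSPN: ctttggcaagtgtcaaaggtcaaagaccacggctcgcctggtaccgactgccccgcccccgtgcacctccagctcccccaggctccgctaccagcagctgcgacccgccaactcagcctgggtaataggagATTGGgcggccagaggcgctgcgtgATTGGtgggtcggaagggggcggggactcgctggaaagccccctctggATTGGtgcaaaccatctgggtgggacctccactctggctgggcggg

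These windows lie at chr2:135876444-135876693 (MCM6, minus strand), chr12:56752324-56752573 (PRIM1, minus strand), chr18:657403-657652 (TYMS, plus strand), chr19:4909251-4909500 (UHRF1, plus strand, 1 of its 3 windows) and chr1:35769979-35770228 (CLSPN, minus strand). MCM6 held 4 core words, in pairs that overlap on opposite strands, and 2 CCAAT boxes. In PRIM1 the single core word overlaps its CCAAT box, 17 bases before the start. TYMS had 1 core word and no CCAAT box, UHRF1 had 2 and 1, and CLSPN had 3 CCAAT boxes, while its core word runs across the start and so is outside the printed stretch. The 28 members with a core word had a median log2 change of 0.014 between the groups, and the 6 without one had 0.066. For the longer form the order was the other way round, with 0.028 in the 18 members that hold it and -0.0035 in the 16 that do not.

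Values are FPKM, fragments scaled to gene length and to a total for each library. Changes are differences of log2(FPKM + 1), si-circ_0000839 minus NC, which understate the change of low genes. The fit (limma) covered the 10674 genes whose mean reached 1 FPKM, and a gene is called at a Benjamini-Hochberg adjusted p under 0.05. The libraries held 18399558 to 19334633 reads. The scaling total was not the same share of these reads in every library. It was 0.958 times the reads in NC replicate 2 and 0.971 times in si-circ_0000839 replicate 1. The highest was 1.023 times, in NC replicate 3. Rescaling as in TPM, given below, does not rest on these totals. The thyroid lineage factor PAX8 had 95.8 ± 2.21 FPKM in NC (SD, n = 3) and 96.3 ± 5.26 after si-circ_0000839, FOXE1 had 10.9 and 11.6, and KRT8, an epithelial keratin, 208 and 190. KRT19, another epithelial keratin, was near 0, at 0.038 and 0.052 FPKM. No library held a read of the thyroid markers NKX2-1, SLC5A5 or TSHR. Leukocyte markers (3, none tested) summed to at most 0.048 FPKM in any library, with PTPRC and CD3E at 0. The 3 fibroblast markers summed to 14.2 to 18.9 FPKM after si-circ_0000839 and 20.01 to 25.04 in NC, nearly all of it LUM. COL1A1 was at 0.565 FPKM after si-circ_0000839 and 0.370 in NC, and DCN at 0.0028 in both. The part of such cells in the results was not tested.

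All 37 members were expressed and all 37 entered the fit, and none was called. Over all tested genes 41 were called, 0.384%, 14 higher (0.131%) and 27 lower (0.253%), with 32 higher and 24 lower once the libraries were rescaled to equal totals as in TPM and 29 higher and 34 lower after quantile normalization. At an unadjusted p under 0.05 there were 5 members, 13.5%, against 12.6% of all tested genes: CLSPN, UHRF1 and CHAF1A were above NC, and PRIM1 and TYMS below. Of all tested genes, 6.31% passed that limit above NC and 6.31% below it. That count moved with the processing. With a trend on GC content and length removed from each library there were 11 members (29.7%, against 19.9% of all tested genes), and 11 again with a replicate block added (18.2%). Rescaling as in TPM gave 9 (24.3%, against 14.5%), leaving out si-circ_0000839 replicate 1 and NC replicate 2 together gave 9 (against 17.6%), and library quality weights gave 13 (35.1%, against 34.9%). There were 3 with the replicate block (against 9.15%), 3 among the 34 members with a mean of at least 5 FPKM (against 14.4%), 3 without si-circ_0000839 replicate 2 (against 12.6%), and 2 without si-circ_0000839 replicate 3 (against 8.43%) or without NC replicate 3 (against 9.33%). The groups did not overlap for 8 members, 21.6%, 4 in each direction, against 18.1% of all tested genes, 10.6% higher and 7.55% lower. The median log2 change was 0.020 over the members and 0.0057 over all tested genes. Above 0 lay 24 members, 64.9%, against 51.8% of all tested genes, and 13 lay below. Their summed level was 1045 ± 18.4 FPKM after si-circ_0000839 and 1036 ± 23.7 in NC (SD, n = 3).

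The intervals of the fit show how large a change it leaves room for, given the spread of these replicates. Every member's 95% confidence interval lay within a 1.5-fold change in either direction, both on FPKM + 1 and when turned back to FPKM at the NC mean. Turned back in this way, 34 of the 37 also lay within 1.3-fold, all but GINS4, PRIM1 and CLSPN. The lowest bound was -0.40 on the log2 scale, for PRIM1, and the highest 0.41, for CLSPN. Members rested on a mean of 127 to 5754 reads per library and group, with a median coefficient of variation of 5.17% within a group. The intervals are not adjusted for the number of genes, come from the fit with group alone, and rest on a spread that may be technical.

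**Figure D1:**
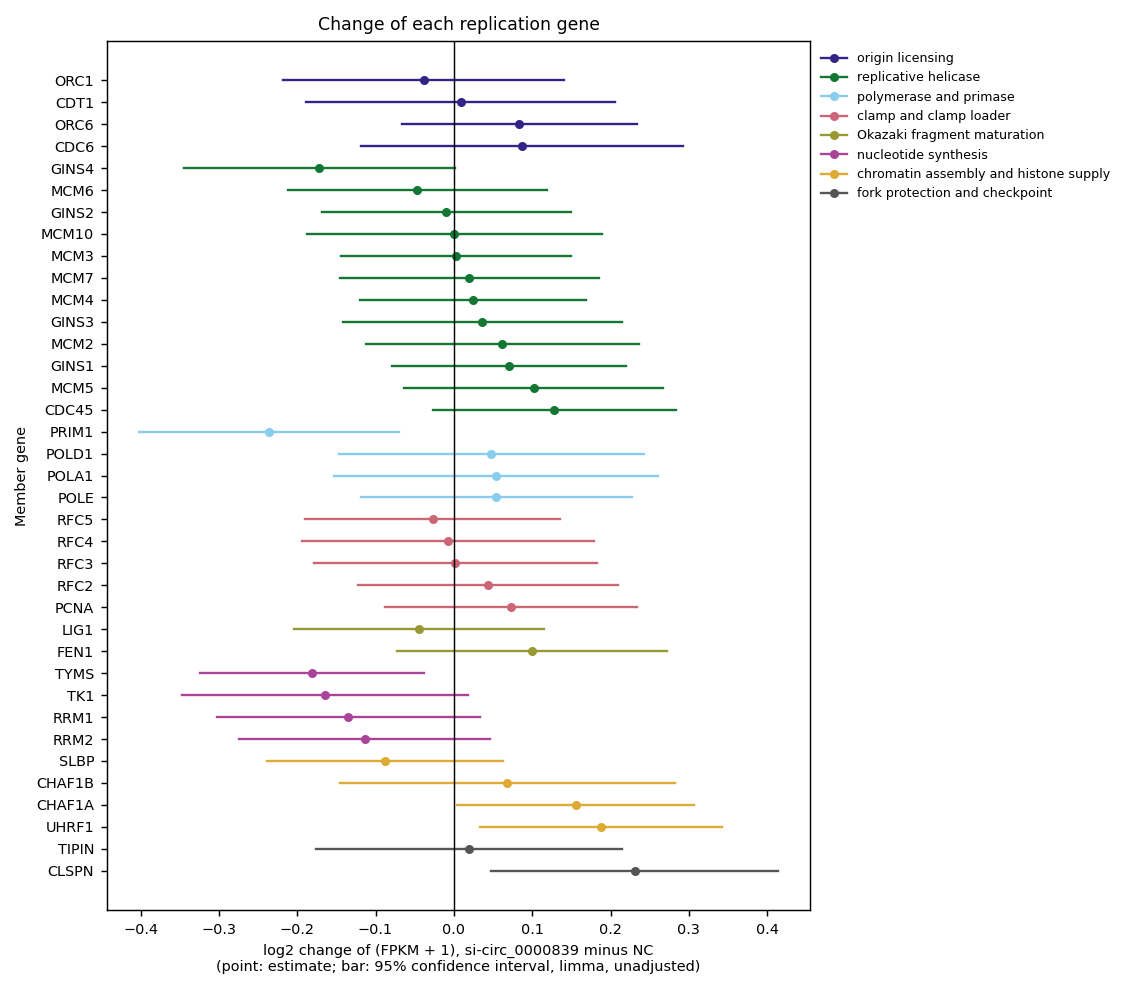
Log2 change of each of the 37 members between si-circ_0000839 and NC (points) with its 95% confidence interval (bars), coloured by functional class. All 4 nucleotide synthesis genes lie below 0, most helicase genes lie near 0, and the intervals reach from -0.40 to 0.41.

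Among the origin licensing genes no difference was resolved. The 4 members, of which ORC1 and ORC6 belong to the origin recognition complex, had log2 changes of -0.04 to 0.09. ORC6, with the smallest p of the class, was at 14.5, 14.6 and 14.1 FPKM in NC replicates 1 to 3 and at 14.5, 15.8 and 15.7 after si-circ_0000839 (log2 change 0.08, SE 0.068, limma adjusted p = 0.662). Its si-circ_0000839 replicate 1 lay among the NC values, and the groups overlapped. CDT1, the loading factor that geminin inhibits, had the same mean, 30.2 FPKM, in both groups, with NC replicate 2 apart from the rest at 34.8. CDC6 stood at 11.4 ± 1.05 and 10.7 ± 1.14 FPKM and ORC1 at 10.2 ± 0.338 and 10.5 ± 1.08, si-circ_0000839 first.

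The 12 helicase genes were almost level between the groups, with a median change of 0.022 and a range of -0.17 to 0.13. MCM7, the most abundant of the 6 subunits of the ring, was at 58.9, 60.6 and 55.1 FPKM in NC and 63.6, 55.5 and 58.0 after si-circ_0000839 (log2 change 0.02, limma adjusted p = 0.946). MCM3 was at 52.7 ± 2.46 against 52.6 ± 0.913 FPKM in NC, MCM4 at 43.9 against 43.1, MCM2 at 34.3 against 32.7, MCM5 at 27.6 against 25.6 and MCM6 at 13.6 against 14.1. These 6 proteins assemble in equal numbers, but MCM6 transcripts were the scarcest of the 6 in every library. The deposited length is the union of all annotated exons, which among the members is up to 2.54 times as long as the longest coding transcript. On that transcript's length the order became MCM7 at 83.3, MCM4 72.5, MCM3 59.9, MCM5 55.2, MCM2 45.3 and MCM6 15.2, so the order of MCM3, MCM4, MCM5 and MCM2 rests on the length used, while MCM7 stayed highest and MCM6 lowest.

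Of the factors that switch the ring on, GINS4 had the lowest and CDC45 the highest estimate of the 12 helicase genes. Whether these factors differ from the ring subunits was not tested. GINS4 had the smallest p of the helicase class, with 6.57, 7.14 and 7.39 FPKM in NC and 5.83, 6.64 and 5.93 after si-circ_0000839 (log2 change -0.17, SE 0.078, limma adjusted p = 0.399). Its si-circ_0000839 replicate 2 reached just into the NC range. The other subunits of the same complex did not share that estimate: GINS1, GINS2 and GINS3 had changes of 0.07, -0.01 and 0.04. CDC45 was at 12.6, 13.3 and 12.4 FPKM in NC and 14.9, 13.4 and 14.0 after si-circ_0000839, without overlap but with an adjusted p of 0.491 in limma. MCM10, an initiation factor, stood at 5.16 ± 0.247 against 5.17 ± 0.561 FPKM.

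PRIM1, the catalytic subunit of primase that makes the RNA primer of each new strand, had the smallest p of all members. It lies on chromosome 12 from 56731596 to 56752373 (minus strand, GRCh38), and its promoter is among those printed. It was at 4.93, 4.45 and 4.72 FPKM in NC and at 3.76, 4.03 and 3.72 after si-circ_0000839, so the 3 libraries of that group all lay under the 3 of NC. The mean ratio was 0.817 (log2 change -0.24, SE 0.075, unadjusted p = 0.00973, limma adjusted p = 0.241). Its partner in the same complex, the polymerase alpha subunit POLA1, did not lie below NC, at 2.61 ± 0.330 against 2.47 ± 0.213 FPKM. POLE and POLD1, the catalytic subunits of polymerases epsilon and delta, stood at 7.39 against 7.08 and 27.6 against 26.7 FPKM. PRIM1 shares 33 exon bases, 1.35% of its exons, with NACA on the same strand, a gene at 24.4 and 26.7 FPKM.

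**Figure D2:**
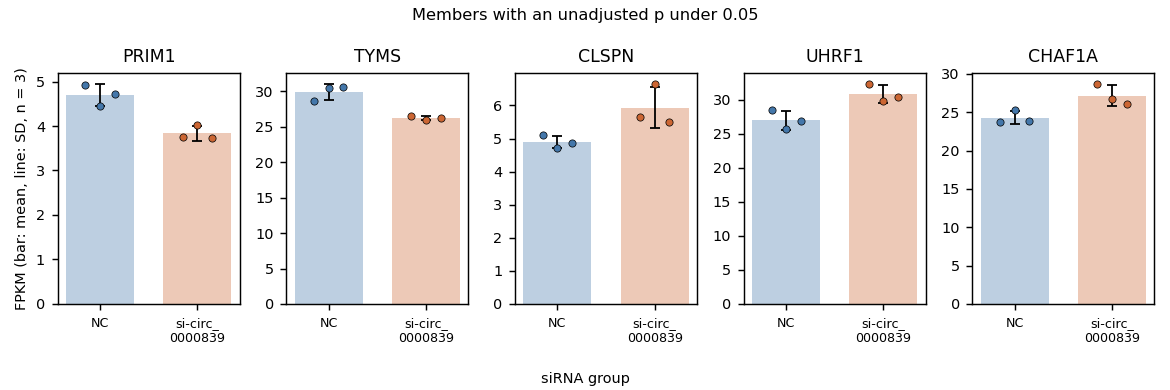
FPKM of the 5 members with an unadjusted p under 0.05 in each library (points), with the group mean (bars) and SD (lines), n = 3 per group. The groups do not overlap in any of the 5, and none has an adjusted p under 0.05, the lowest being 0.241 for PRIM1.

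The clamp PCNA was the most abundant member, at 185, 174 and 191 FPKM in NC and 188, 204 and 187 after si-circ_0000839. The groups overlapped (log2 change 0.07, SE 0.073, limma adjusted p = 0.733). The 4 small subunits of its loader ran from 42.2 FPKM for RFC2 to 8.58 for RFC3 after si-circ_0000839, against 40.9 and 8.55 in NC, with changes of -0.03 to 0.04. FEN1, the nuclease that trims Okazaki fragments, was at 64.8, 74.7 and 65.7 FPKM in NC and 77.3, 73.2 and 69.4 after si-circ_0000839 (log2 change 0.10, limma adjusted p = 0.649). NC replicate 2 lay inside the range of the other group. LIG1, the ligase that seals those fragments, stood at 11.2 ± 0.659 against 11.5 ± 0.454 FPKM.

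**Figure D3:**
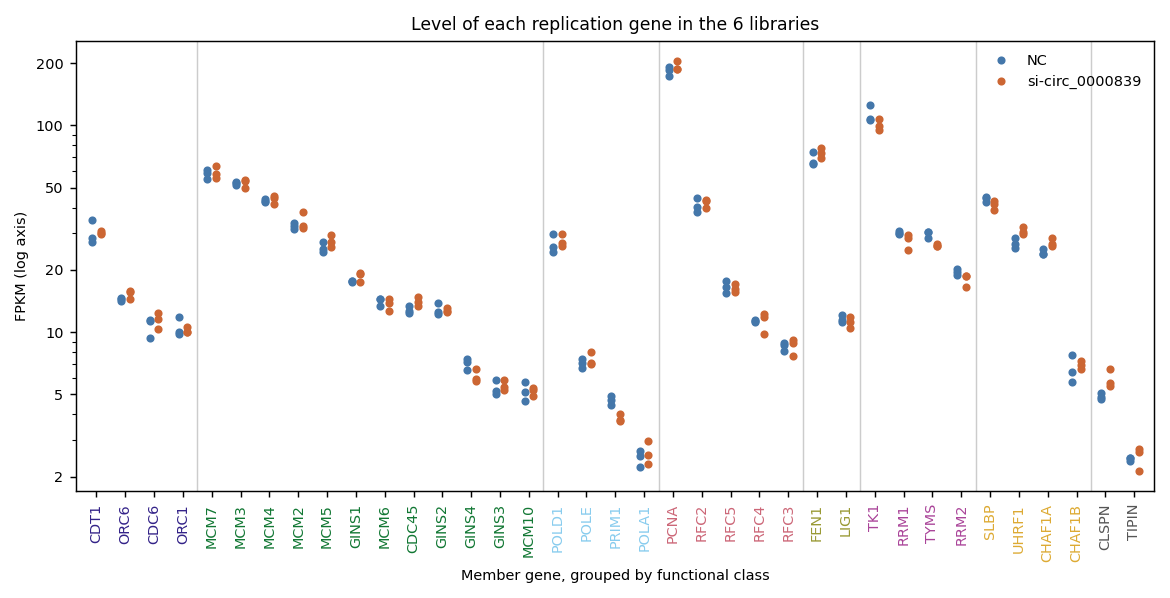
FPKM on a log axis of each member in the 3 NC and 3 si-circ_0000839 libraries, grouped by functional class and ordered by level within it. Levels run from 2.46 FPKM for TIPIN to 188 for PCNA on average, and differences between genes are much larger than those between groups.

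The 4 nucleotide synthesis genes were the one class of 4 or more members in which every estimate lay below 0, with a median of -0.15, though none was called. TYMS, thymidylate synthase, was at 28.7, 30.6 and 30.6 FPKM in NC and at 26.6, 26.0 and 26.2 after si-circ_0000839. All 3 libraries of that group lay below NC (ratio 0.878, log2 change -0.18, SE 0.065, unadjusted p = 0.0176, limma adjusted p = 0.287). TK1, the thymidine kinase of the salvage route, was at 107, 125 and 108 FPKM in NC and 107, 95.4 and 99.5 after si-circ_0000839 (log2 change -0.16, SE 0.083, limma adjusted p = 0.451). The highest value was NC replicate 2, and si-circ_0000839 replicate 1 overlapped NC. RRM1 and RRM2, the large and small subunits of ribonucleotide reductase, stood at 27.6 ± 2.38 against 30.3 ± 0.510 and at 18.0 ± 1.22 against 19.5 ± 0.605 FPKM, without overlap, with adjusted p of 0.507 and 0.562 in limma. Both were lowest in si-circ_0000839 replicate 1. Of the exons of TYMS, 39.1% overlap ENOSF1 on the other strand, at 3.18 and 3.32 FPKM, and reads of that part may belong to either gene, since it is not known whether strand was used in counting. In all, 10 members share exon bases with another tested gene. Among them are MCM7 (8.94%, AP4M1), FEN1 (6.70%, TMEM258) and RFC5 (5.72%, WSB2), each with a gene on the other strand.

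Of the 4 genes of chromatin assembly and histone supply 3 estimates lay above 0 and 1 below, and both genes of fork protection and checkpoint lay above 0, with none called. UHRF1, which reads hemimethylated DNA and brings DNMT1 to it, was at 28.4, 25.6 and 26.8 FPKM in NC and at 32.3, 29.8 and 30.4 after si-circ_0000839 (ratio 1.14, log2 change 0.19, SE 0.070, limma adjusted p = 0.309). CHAF1A, the large subunit of CAF-1, was at 23.7, 25.2 and 23.8 FPKM in NC and at 28.6, 26.8 and 26.0 after si-circ_0000839 (log2 change 0.16, SE 0.068, limma adjusted p = 0.383). In neither gene did the groups overlap. The other CAF-1 member, CHAF1B, stood at 6.96 ± 0.326 against 6.63 ± 1.01 FPKM, and SLBP, which binds the end of histone transcripts, at 41.3 ± 2.05 against 43.9 ± 1.34. CLSPN, the adaptor through which ATR activates CHK1 at stalled forks, was at 5.11, 4.73 and 4.86 FPKM in NC and at 5.65, 6.64 and 5.51 after si-circ_0000839, the highest ratio of the members at 1.21 (log2 change 0.23, SE 0.083, limma adjusted p = 0.289). Its si-circ_0000839 replicate 2 stood apart from the other 2. TIPIN, of the fork protection complex, was at 2.49 ± 0.309 against 2.43 ± 0.0512 FPKM.

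The libraries differed among themselves along the base composition of these genes, by amounts as large as the differences between groups. In si-circ_0000839 replicate 1 the 12 members with the highest GC content (52.8% or more) lay 0.13 above their mean over the 6 libraries on the log2 scale and the 12 with the lowest (45.2% or less) lay at -0.11. NC replicate 2 had 0.044 and -0.042, and NC replicate 3 the opposite, -0.099 and 0.032. Across the 37 members, which share these libraries, Pearson's r between GC content and deviation was 0.685 in si-circ_0000839 replicate 1 and 0.444 in NC replicate 2, and -0.170 to -0.530 in the other 4. The drift was not particular to the members. Over 10670 tested genes r was 0.581 and 0.340 in those libraries and -0.047 to -0.378 in the other 4. UHRF1 and CHAF1A have 57.6% and 57.2% GC and were highest in si-circ_0000839 replicate 1, where RRM1, with 43.6%, was lowest. TK1 has 61.7% GC and an estimate below NC, and CLSPN has 43.9% and an estimate above NC. PRIM1 has the lowest GC content of the members, 40.7%, and an estimate below NC.

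**Figure D4:**
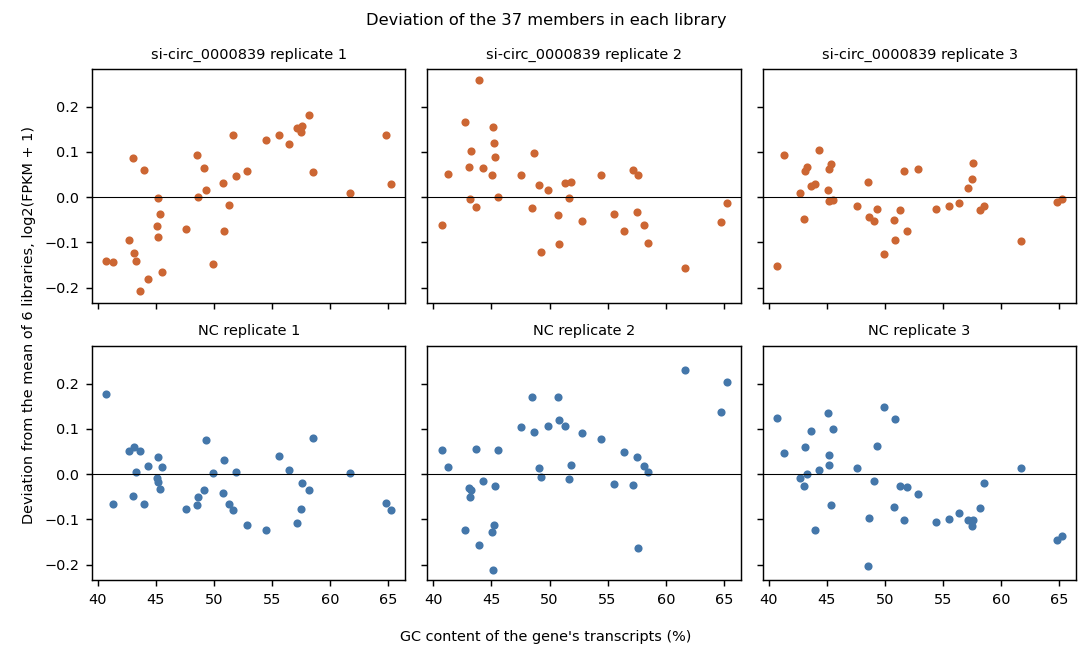
Deviation of each of the 37 members from its mean over the 6 libraries, log2(FPKM + 1), against the GC content of its transcripts, 1 panel per library. The points climb with GC content in si-circ_0000839 replicate 1 and in NC replicate 2 and run flat or downward in the other 4 libraries.

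With a trend on GC content and length removed from each library, no member was called either, while 253 of all tested genes were, 2.37%. The smallest adjusted p among the members were then 0.0662 for TK1 and 0.0707 for TYMS (limma), with changes of -0.15 and -0.17. PRIM1 had -0.15 (limma adjusted p = 0.247), against -0.24 without that step, and CLSPN 0.24 (limma adjusted p = 0.102). UHRF1 had 0.14 (limma adjusted p = 0.268) and CHAF1A 0.12 (limma adjusted p = 0.172), against 0.19 and 0.16 without that step. With si-circ_0000839 replicate 1 and NC replicate 2 left out together, TYMS was at -0.17 (adjusted p = 0.180), PRIM1 at -0.26 (adjusted p = 0.162) and UHRF1 at 0.12 (adjusted p = 0.284). Weighting the libraries by their estimated quality was the one of 22 alternatives that called members: PRIM1, TYMS and GINS4 lower and UHRF1 and CDC45 higher, 13.5% of the members against 18.4% of all tested genes. In that fit si-circ_0000839 replicate 3 had a weight of 7.66 and the other 5 libraries 0.262 to 1.67, and the iteration for the weights stopped before it converged.

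Among 99 tested genes of the same processes outside the member list none was called. Of 34 tested other replication genes 18 were above 0 and 16 below (median 0.0016). RNASEH2C, a subunit of the nuclease that removes ribonucleotides from DNA, had the smallest p, at 12.4 ± 0.729 against 14.7 ± 2.09 FPKM in NC (limma adjusted p = 0.375), and POLD2 was the most abundant, at 72.8 against 66.1. Of 28 tested other nucleotide supply genes 15 were above 0. DUT, which turns dUTP into dUMP, the substrate of thymidylate synthase, stood at 16.4 ± 0.535 against 18.8 ± 1.22 FPKM (log2 change -0.18, limma adjusted p = 0.330), and IMPDH2, of guanine nucleotide synthesis, at 108 against 111. Among 10 tested replication-coupled chromatin genes RBBP4, the histone-binding subunit of CAF-1, was at 12.4 against 11.4 FPKM and the histone chaperone ASF1B at 73.5 against 75.6. Among 27 regulators of S-phase entry 14 were above 0 and 13 below. Their median absolute log2 change was 0.120, against 0.062 for the members and 0.082 for all tested genes. The median level was 7.79 FPKM for these regulators, 16.5 for the members and 6.44 for all tested genes. Whether level plays a part in that difference was not tested. Of the 27, 3 in each direction had an unadjusted p under 0.05 in limma, against 6.31% of all tested genes in each direction. E2F2 had the smallest p there, at 1.86 ± 0.214 against 2.54 ± 0.129 FPKM (log2 change -0.31, limma adjusted p = 0.190), and CDKN2A, which encodes inhibitors of the G1 kinases and of MDM2, was the most abundant, at 191 against 213.

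A list of mitosis genes, chosen with earlier results of these data known, was read in the same libraries. All 19 tested mitosis genes lay below 0, with a median log2 change of -0.14. Below 0 were 13 of the 37 replication genes (median 0.020) and 5145 of all 10674 tested genes. Of the 19, 3 had an unadjusted p under 0.05 in limma, against 12.6% of all tested genes. The checkpoint kinase gene TTK was at 3.83 ± 0.141 FPKM in NC and fell to 2.22 ± 0.240 (log2 change -0.59, SE 0.084, limma adjusted p = 0.0158) and was the one called gene of that list. CDC20, the most abundant, was at 218 ± 8.60 against 252 ± 34.0 FPKM. The difference between the lists was not tested. For scale, LGALS3, which encodes galectin-3 and changed most among the called genes, fell from 10.1 to 1.69 FPKM. The ratio of none of the 37 members lay outside 0.817 to 1.21. DBF4, of the other replication genes, had a ratio of 0.797 (limma adjusted p = 0.387).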

How the data were processed

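The authors deposited a table of FPKM per gene and library, with gene lengths and coordinates, per the file headers. The submitters' processing notes name HISAT2 2.0.5 and featureCounts 1.5.0-p3. For genome build, strand setting and scaling total, the sources used here give nothing. Of 58735 gene IDs, 58724 match GENCODE release 29 in start, end and strand, and positions are therefore given as GRCh38. Multiplied by gene length, 100% of the deposited FPKM values above 0 were whole multiples of one step per library (within 0.01), from which reads per gene were recovered. Another 11 genes named as pseudogenes of members were at most at 0.0078 FPKM.

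Groups were compared two-sided on log2(FPKM + 1) with limma 3.58.1 (R 4.3.3), its prior variance trended, for all genes averaging 1 FPKM or more, with no term besides group and Benjamini-Hochberg adjustment over all of them. The fit was also run on simulated reads without a GC trend and with larger changes than those of the members. That run therefore cannot show how the fit performs on changes as small as theirs. GC content was taken over all transcripts of a gene in GENCODE. Alternatives changed the pseudocount, filter, scaling, prior variance, library weights, gene set or libraries, used voom on the recovered reads, a replicate block, or removed from each library a trend on GC content and length (splines, 5 degrees of freedom per variable). Members, classes and lists were chosen with earlier results of these data known. Values in every library are given for members with an unadjusted p under 0.05, for the 4 most abundant and for the one with the smallest p in each class. From each list the called genes are named, or else the one with the smallest p and the most abundant.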

Additional observations from a re-analysis of the deposited data

How the results depend on the processing

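In 21 of 22 alternatives no member was called. With library quality weights 2 members were called higher and 3 lower, beside 1969 of all tested genes. The count over all tested genes, 41 as reported, was 4 with no filter on low values, 68 at a mean of at least 5 FPKM, 63 after quantile normalization, 66 with a robust prior variance, 84 with voom on recovered reads, 125 for protein-coding genes alone, 20 with si-circ_0000839 replicate 1 and NC replicate 2 both left out and 253 with the GC and length trend removed. Leaving out 1 library gave 20 (no si-circ_0000839 replicate 1) to 37 genes, with 21 when replicate 3 of either group was left out. Fewer genes tested or fewer samples entered some of these fits; for the others the cause was not tested. The median log2 change of the members was 0.042 with libraries rescaled as in TPM, 0.047 without both libraries named above and -0.0037 to 0.037 with 1 library left out, so its sign is not fixed. PRIM1, TYMS, CLSPN, UHRF1 and CHAF1A kept their sign in every alternative in which they were tested, as did all 4 nucleotide synthesis genes. So did members with a larger p, among them CDC6, GINS1, PCNA and LIG1. The alternatives reuse the libraries by which these genes were picked, so a kept sign is no separate support.

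Deviations of same-numbered libraries had r of -0.149, -0.289 and 0.150 across 10674 genes. The highest r was that of si-circ_0000839 replicate 1 with NC replicate 2 (0.353). Deviations also followed GC content in single libraries, so these values cannot tell whether the numbers pair the samples. With the replicate block 0 members and 35 genes were called, and with the block and the GC and length trend removed 0 members and 123 genes. At these read totals a 1.3-fold change in FPKM lay inside the 95% interval of 3 members.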

Other observations

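Among the 27 regulators of S-phase entry, genes chosen after their values were seen lay on both sides of NC, and none was called. CCNE1, a cyclin of the G1/S transition, was at 5.42, 5.35 and 5.33 FPKM in NC and 4.83, 4.27 and 4.03 after si-circ_0000839 (limma adjusted p = 0.244). CCNE2 was at 1.75, 1.19 and 1.74 FPKM in NC and 0.893, 1.09 and 1.12 after si-circ_0000839 (limma adjusted p = 0.270). The groups did not overlap in either cyclin gene, although NC replicate 2 of CCNE2 lay close to the other group. Above NC lay CCND1, a D-type cyclin of G1, at 69.3, 66.4 and 74.7 FPKM in NC and 81.2, 78.7 and 82.2 after si-circ_0000839 (limma adjusted p = 0.275). E2F7, an atypical E2F repressor, was at 9.22, 7.51 and 9.30 FPKM in NC and 9.63, 11.0 and 10.0 after si-circ_0000839 (limma adjusted p = 0.355), and E2F5 had 1.82 ± 0.0973 FPKM after si-circ_0000839 and 1.41 ± 0.198 in NC (SD, n = 3, limma adjusted p = 0.338). The groups did not overlap in these 3 genes either. In the whole list they did not overlap for 4 genes above NC and 3 below, against 10.6% and 7.55% of all tested genes. E2F1 had 36.2 FPKM after si-circ_0000839 and 38.1 in NC.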
